A study of Homo sapiens with 8 samples.

Results

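The ubiquitin-specific proteases (USPs) were examined in A673, an established cell line of Ewing Sarcoma, after treatment with JIB-04. Members were taken by name, as the entries of the expression table whose symbol is USP followed by a number, with or without a final X or L. The rule found 51 members among 65975 gene identifiers, and each member had a single identifier. A mean of at least 1 FPKM (fragments scaled to transcript length and to the mapped fragments of a library) over the 8 libraries was reached by 45 members, among 17460 genes at that level.

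Ubiquitin is a small protein that enzymes attach to other proteins, where it can mark them for the proteasome, route receptors through endosomes or change how chromatin and DNA repair factors act. USPs are cysteine proteases that cut ubiquitin off again, and they form the largest family of human deubiquitinases. Different members act on histones, on free ubiquitin chains, on receptors or on proteins such as MDM2, so the family is best read member by member and by role.

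The study compared 4 libraries of cells given vehicle (DMSO) with 4 libraries of cells given 2 μM JIB-04, a small molecule that inhibits Jumonji-domain histone demethylases, both for 36 hours. All come from 1 cell line at 1 dose and 1 time. The paper gives the treatment of each group as done in quadruplicate. Neither it nor the labels say that the 4 samples of a group were separate cultures. The p-values therefore cover only the variation among the libraries, which may be technical. Polyadenylated RNA was sequenced from directional libraries. The depth in reads is unknown from FPKM. A rough estimate came from the most common ratio of low values between vehicle replicate 1 and each library. It put relative depths at 0.821 to 0.956 for the other vehicle libraries and 0.766 to 0.923 for JIB-04.

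The libraries carried the markers of the labelled line. FLI1, the 3′ partner of the EWS/Fli1 fusion, had a mean of 60.4 FPKM in vehicle and 71.3 with JIB-04, and NR0B1, a gene known to depend on the fusion, had 111 and 124. CD99, the surface marker of Ewing Sarcoma, had 1160 and 599 FPKM, NKX2-2 had 151 and 88.9, and STEAP1 had 197 and 169. Of these 5 markers, 1 rose (FLI1), 3 fell (CD99, NKX2-2, STEAP1, the last not on TPM) and NR0B1 did not pass on FPKM but was called higher on TPM (0.32, limma adjusted p = 0.00455). Markers of leukocytes (PTPRC), epithelium (EPCAM) and liver (ALB) had means of at most 0.23 FPKM in both groups, and PECAM1, of endothelium, had 0.57 and 1.29. Genes of the mitochondrial genome took 9.99% to 10.6% of all FPKM in the vehicle libraries and 4.59% to 5.54% in the treated ones. Their part in the values given here was not tested, but rescaling FPKM to TPM, so that every library had the same sum, moved the median of all genes tested up by 0.15 on the log2 scale, and members whose call differs on TPM are named.

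Each member was compared between the groups by limma on log2(FPKM + 0.5), with Benjamini-Hochberg adjustment over all 17460 genes tested, and a member was taken as changed at an adjusted p under 0.05. Of the 45 members tested, 22 rose with JIB-04, where 34.2% of all genes tested were called higher, and 17 fell, where 38.0% of all genes were called lower. The other 6 did not pass. A rise of at least 2-fold was called for 6 members (13.1% of all genes) and a fall of at least 2-fold for 3 (11.8% of all genes). In 36 of the 45 members, every one of them called, the 4 JIB-04 libraries did not overlap the 4 vehicle libraries, which held for 67.3% of all genes tested. The share called higher, 48.9% of the members tested, was thus above that of all genes, and the share called lower, 37.8%, was near it. One of the 17 falls, that of USP44, was of a member that reached the level for testing through the vehicle group alone, and without it 16 fell, 2 of them at least 2-fold. In a bulk culture, fewer cells carrying a transcript and less of it per cell cannot be told apart.

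Change in both directions left the middle of the family close to 0. The median log2 fold change was 0.10 over the 45 members and -0.07 over all genes tested, and its value over the members was 0.18 without vehicle replicate 4 and 0.16 without JIB-04 replicate 2. On the TPM scale the medians were 0.27 and 0.08, 25 members were called higher (40.4% of all genes) and 11 lower (31.1% of all genes). All 22 members called higher on FPKM were also called higher on TPM, and 11 of the 17 lower ones remained lower. USP44, tested through the vehicle group alone, is among those 11. Of the 6 that lost the call, 5 were still below 0 on TPM and USP7 was above it.

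**Figure D1:**
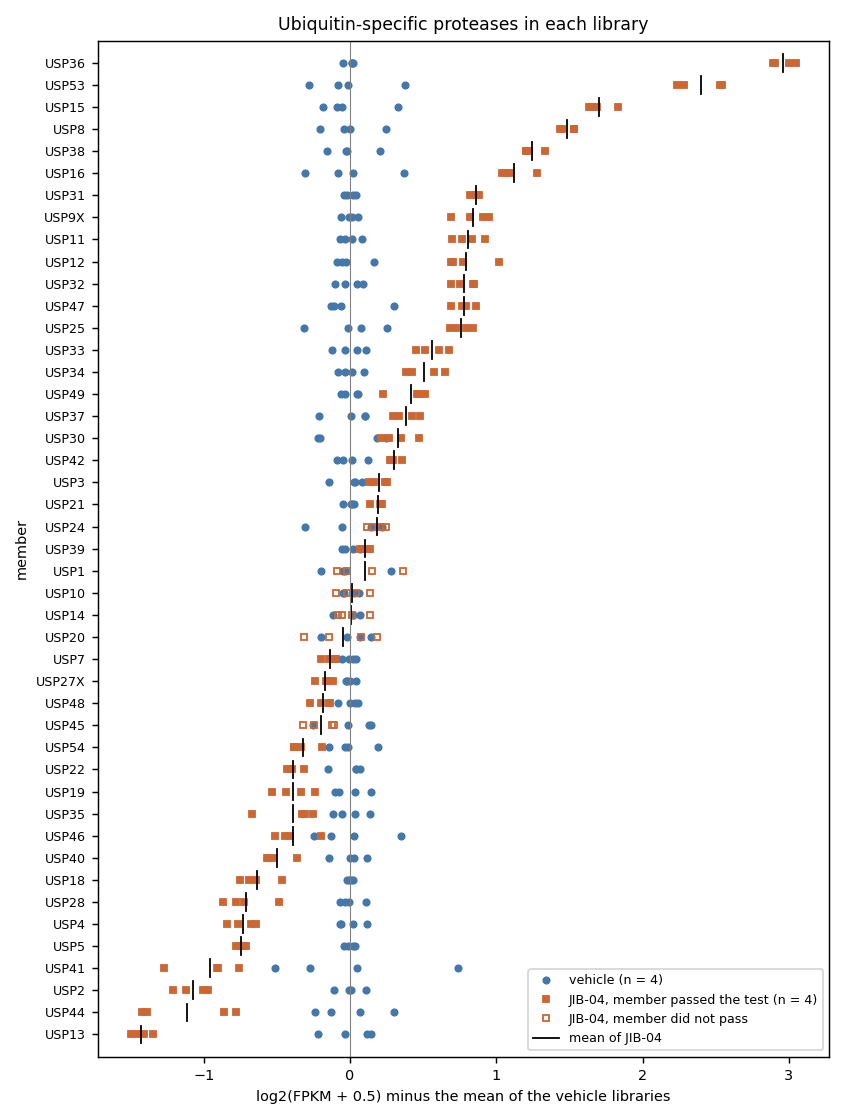
Level of each of the 45 tested members in every library, as log2(FPKM + 0.5) minus the mean of the 4 vehicle libraries (x axis), with vehicle as circles, JIB-04 as squares, open squares for the 6 members that did not pass and a bar at the JIB-04 mean. USP36, at 2.96, lies farthest to the right with closely spaced libraries in both groups, and USP13, at -1.43, farthest to the left.

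Members at the top of the family changed places. In vehicle the 3 highest mean levels were those of USP7 (260 FPKM), USP22 (199 FPKM) and USP11 (168 FPKM), and with JIB-04 they were those of USP36 (344 FPKM), USP11 (295 FPKM) and USP7 (237 FPKM). USP36 moved from rank 14 among the 51 members to rank 1. The summed FPKM of all 51 members was 2126 ± 41.1 (SD, n = 4) in vehicle and 2805 ± 34.4 (SD, n = 4) with JIB-04, a ratio of 1.32. USP36 alone accounted for 2.05% of that sum in vehicle and 12.3% with JIB-04, and without it the sums were 2083 ± 40.2 and 2462 ± 31.0 (SD, n = 4).

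**Figure D2:**
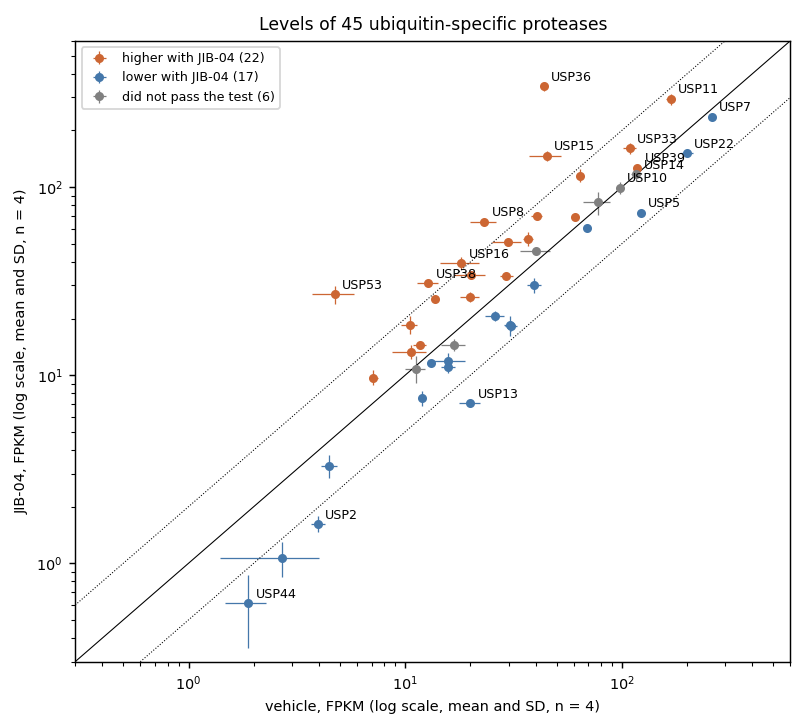
Mean level of each tested member in vehicle (x axis) and with JIB-04 (y axis), in FPKM on log scales, with SD over 4 libraries as bars, a solid line at equality and dotted lines at 2-fold. USP36 stands at 344 FPKM with JIB-04 against 43.6 in vehicle, while USP14 and USP10 lie on the line of equality.

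USP36, a protease of the nucleolus that acts in ribosome production and on MYC, showed the largest change. It had 42.2, 43.9, 44.0 and 44.2 FPKM in the 4 vehicle libraries and 327, 353, 365 and 329 FPKM in the 4 JIB-04 libraries. The lowest JIB-04 library lay far above the highest vehicle library, and the spread within each group was small. Its log2 fold change was 2.96 ± 0.046 (SE) with a limma adjusted p of 3.66e-10, and it lay between 2.93 and 2.99 when any 1 library was left out.

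USP53, a protein found at tight junctions and long described as lacking protease activity, had the next largest rise. It had 3.75, 4.39, 4.63 and 6.21 FPKM in vehicle and 29.6, 29.4, 24.7 and 23.8 FPKM with JIB-04. All 4 treated libraries were therefore well above the vehicle range, and vehicle replicate 4 was the highest of its group. The log2 fold change was 2.40 ± 0.14 (SE, limma adjusted p = 4.20e-07).

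The sequences before the start sites of these 2 members are printed because they had the largest rises, and these stretches differ in base composition. They were taken from RefSeq (GRCh38.p14) at the start nearest to that of GENCODE, cut where either annotation begins the transcript, and are written 5′ to 3′ on the strand of the gene, with GGGCGG (or its reverse complement, the letters bound by SP1) in capitals. The USP36 stretch is chr17:78841442-78841689 on the minus strand, and that of USP53 is chr4:119212463-119212586 on the plus strand.
USP36: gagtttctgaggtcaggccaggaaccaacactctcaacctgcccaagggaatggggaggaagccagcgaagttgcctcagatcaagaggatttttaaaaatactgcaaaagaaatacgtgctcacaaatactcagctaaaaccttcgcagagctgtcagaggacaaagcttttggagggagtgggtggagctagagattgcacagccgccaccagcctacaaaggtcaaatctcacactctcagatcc
USP53: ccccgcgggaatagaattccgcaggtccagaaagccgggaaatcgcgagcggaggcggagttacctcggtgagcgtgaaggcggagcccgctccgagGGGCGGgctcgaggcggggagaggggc

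The USP36 stretch holds 248 bases with 49.2% G or C and 0 matches to GGGCGG, and the USP53 stretch holds 124 bases with 70.2% G or C and 1 match. RefSeq also places a start of USP36 further into the gene, whose window does hold GGGCGG, and gene-level FPKM do not tell which start was used. Of the 51 members, 39 had a RefSeq window of 300 bases, 250 before and 50 after the first start listed. GGGCGG was found on either strand in 31 of these 39 windows (79.5%), those of USP36 and USP53 among them, against 44.6% of the windows of all 27305 genes in the table and 70.6% of those of 9381 expressed coding genes. CCGGAAG, a site of ETS factors such as Fli1, was in 10 windows (25.6%, against 10.7% and 19.9%), and ACGTG, the core of the hypoxia response element, in 6 (15.4%, against 21.6% and 27.0%). GCGTG, the core of the xenobiotic response element, was in 27 windows (69.2%, against 36.3% and 51.3%). CACGTG, the E-box, which contains ACGTG, was in 3 (7.69%, against 7.43% and 10.3%), and CCAAT was in 10 (25.6%, against 35.7% and 37.0%). A match describes these letters in the window and not binding.

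The 4 members listed under TGF-beta, Wnt and NF-kB signaling were called higher, where 34.2% of all genes tested were. That list was drawn up with earlier results of these data known. It leaves out USP4, which also acts on the TGF-beta receptor and fell (log2 fold change -0.73). USP15, which removes ubiquitin from TGF-beta receptors and SMADs, had 42.8, 39.2, 41.9 and 56.1 FPKM in vehicle and 145, 139, 160 and 141 FPKM with JIB-04. The groups were far apart, with a log2 fold change of 1.70 ± 0.11 (SE, limma adjusted p = 5.52e-07). USP38 had 11.4, 12.5, 12.6 and 14.7 FPKM in vehicle and 29.9, 30.0, 32.9 and 30.4 FPKM with JIB-04, again without overlap (log2 fold change 1.24, limma adjusted p = 8.01e-07). USP31 rose by 0.86, and USP34, which stabilises axin in the Wnt pathway, by 0.51 on the log2 scale. Both scalings gave the same 4 calls.

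Members of endosomes, receptors and membrane traffic had 5 of the 7 tested higher (34.2% of all genes), 1 lower (38.0% of all genes) and 1 not passed, with a median log2 fold change of 0.78 against -0.07 over all genes. USP8, which works with the ESCRT machinery to recycle receptors such as EGFR, had 19.8, 22.4, 23.0 and 27.4 FPKM in vehicle and 67.5, 67.4, 63.2 and 63.6 FPKM with JIB-04. Its treated libraries were all far above the highest vehicle library, which was replicate 4. The log2 fold change of USP8 was 1.49 ± 0.089 (SE, limma adjusted p = 4.68e-07).

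The other rises in that group were of USP9X (0.84), USP12 (0.80), USP32 (0.78) and USP33 (0.56, from 109 to 161 FPKM), on the log2 scale. USP20, the close relative of USP33, had a log2 fold change of -0.05 on FPKM that did not pass and was 0.11 on TPM. C9orf78, at 106 FPKM in vehicle and 72 with JIB-04, overlaps USP20 on the opposite strand. USP46, which like USP12 is activated by WDR48, fell by 0.39 on FPKM and did not pass on TPM (-0.23). Its call was also lost without vehicle replicate 2, JIB-04 replicate 2 or JIB-04 replicate 4, with limma adjusted p of 0.0525, 0.0608 and 0.0547.

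The 3 members that handle free ubiquitin chains or work at the proteasome included none that rose on FPKM (34.2% of all genes) and 2 that fell (38.0% of all genes). USP13, a relative of USP5 that has been tied to MITF, had 17, 21.6, 19.4 and 22.0 FPKM in vehicle and 7.52, 6.95, 6.73 and 7.17 FPKM with JIB-04. The highest treated library was below the lowest vehicle library, with a log2 fold change of -1.43 ± 0.091 (SE, limma adjusted p = 6.61e-07), the largest fall on this scale among members tested. As ratios of mean FPKM, without the pseudocount, USP44 (0.325) and the untested USP51 (0.328) were lower than USP13 (0.355).

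USP5, which takes apart free ubiquitin chains, had 119, 125, 124 and 121 FPKM in vehicle and 70.9, 74.0, 72.2 and 74.4 FPKM with JIB-04. Each group spanned only a few FPKM and the gap between them was wide (log2 fold change -0.74 ± 0.038, SE, limma adjusted p = 1.78e-07). USP14, which trims ubiquitin at the proteasome, had 108, 118, 118 and 122 FPKM in vehicle and 112, 110, 118 and 128 FPKM with JIB-04. Its groups lay on top of each other at 0.00 on the log2 scale (limma adjusted p = 0.962), while on TPM it was called higher at 0.17. THOC1, at 66.6 and 80.2 FPKM, overlaps USP14 on the opposite strand.

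Histone deubiquitinases went in both directions, with 5 of the 9 tested higher (34.2% of all genes) and 4 lower (38.0% of all genes), USP44 among the latter. On TPM 5 were higher (40.4% of all genes) and 2 lower (31.1% of all genes), USP44 again among the latter. USP16, which removes ubiquitin from histone H2A, had 14.4, 16.8, 18.1 and 23.3 FPKM in vehicle and 37.3, 38.0, 44.0 and 38.7 FPKM with JIB-04. The groups did not overlap, although vehicle varied widely (log2 fold change 1.12 ± 0.13, SE, limma adjusted p = 4.17e-05). Smaller rises were those of USP49 (0.42), USP42 (0.30), USP3 (0.20) and USP21 (0.19). Of these, USP3 did not pass without JIB-04 replicate 4 (limma adjusted p = 0.0537). TOMM6, at 286 FPKM in vehicle and 213 with JIB-04, overlaps USP49 on the opposite strand.

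On the falling side of the histone group, USP44, which acts on histone H2B and in the spindle checkpoint, had 1.49, 1.97, 1.66 and 2.41 FPKM in vehicle and 0.400, 0.796, 0.382 and 0.873 FPKM with JIB-04. All treated libraries were under 1 FPKM and below the vehicle range, and the member reached the level for testing through the vehicle group alone. Its log2 fold change was -1.11 ± 0.21 (SE), given as a description because of that filter. USP22, the H2B deubiquitinase of the SAGA complex and one of the most abundant members, fell by 0.39 on the log2 scale, from 199 to 152 FPKM. USP27X (-0.17) and USP48 (-0.19) also passed on FPKM, but neither did on TPM (-0.01 and -0.02), and USP27X lost its call without vehicle replicate 3, JIB-04 replicate 1 or JIB-04 replicate 3 (limma adjusted p of 0.0751, 0.0515 and 0.0628).

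The 10 members tied to DNA repair, p53 and the cell cycle had 3 higher (34.2% of all genes), 3 lower (38.0% of all genes) and 4 not passed. On TPM they had 5 higher (40.4% of all genes) and 2 lower (31.1% of all genes). USP11, which acts in repair with BRCA2 and PALB2, rose by 0.81 on the log2 scale, from 168 ± 7.79 to 295 ± 19.8 FPKM (SD, n = 4). USP47, which acts on DNA polymerase beta, rose by 0.78, and USP37, which stabilises cyclin A, by 0.38. USP2, which acts on MDM2 and cyclin D1, had 4.31, 3.98, 3.62 and 3.94 FPKM in vehicle and 1.72, 1.43, 1.78 and 1.55 FPKM with JIB-04. Both groups were tight and well separated (log2 fold change -1.08 ± 0.11, SE, limma adjusted p = 1.55e-05). USP28, which stabilises MYC and binds 53BP1, fell by 0.71 on the log2 scale.

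USP7, which deubiquitinates MDM2 and p53 and had the highest vehicle level of the family, changed direction with the scaling. It fell by 0.14 on FPKM (limma adjusted p = 0.010), from 260 ± 7.33 to 237 ± 7.74 FPKM (SD, n = 4), and was at 0.03 on TPM (limma adjusted p = 0.537). USP1, the deubiquitinase of FANCD2 and PCNA, had 66.7, 74.3, 75.0 and 93.2 FPKM in vehicle and 75.6, 72.2, 98.6 and 85.1 FPKM with JIB-04. These groups overlapped over most of their range (log2 fold change 0.10, limma adjusted p = 0.475).

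USP10, which binds G3BP and acts on p53, had 95.4, 95.0, 102 and 99.7 FPKM in vehicle and 108, 91.7, 101 and 96.7 FPKM with JIB-04, with full overlap of the groups (log2 fold change 0.02, limma adjusted p = 0.809). USP24 had 38.5, 32.2, 46.5 and 44.2 FPKM in vehicle and 46.3, 44.7, 43.3 and 47.5 FPKM with JIB-04. Its vehicle libraries spread widely, and 2 of the 4 lay within the treated range (log2 fold change 0.18, limma adjusted p = 0.149). On TPM both were called higher, USP10 at 0.18 and USP24 at 0.34. USP45, a partner of the repair nuclease ERCC1, was at -0.20 and did not pass (limma adjusted p = 0.0997), and passed without vehicle replicate 1 (0.0125).

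**Figure D3:**
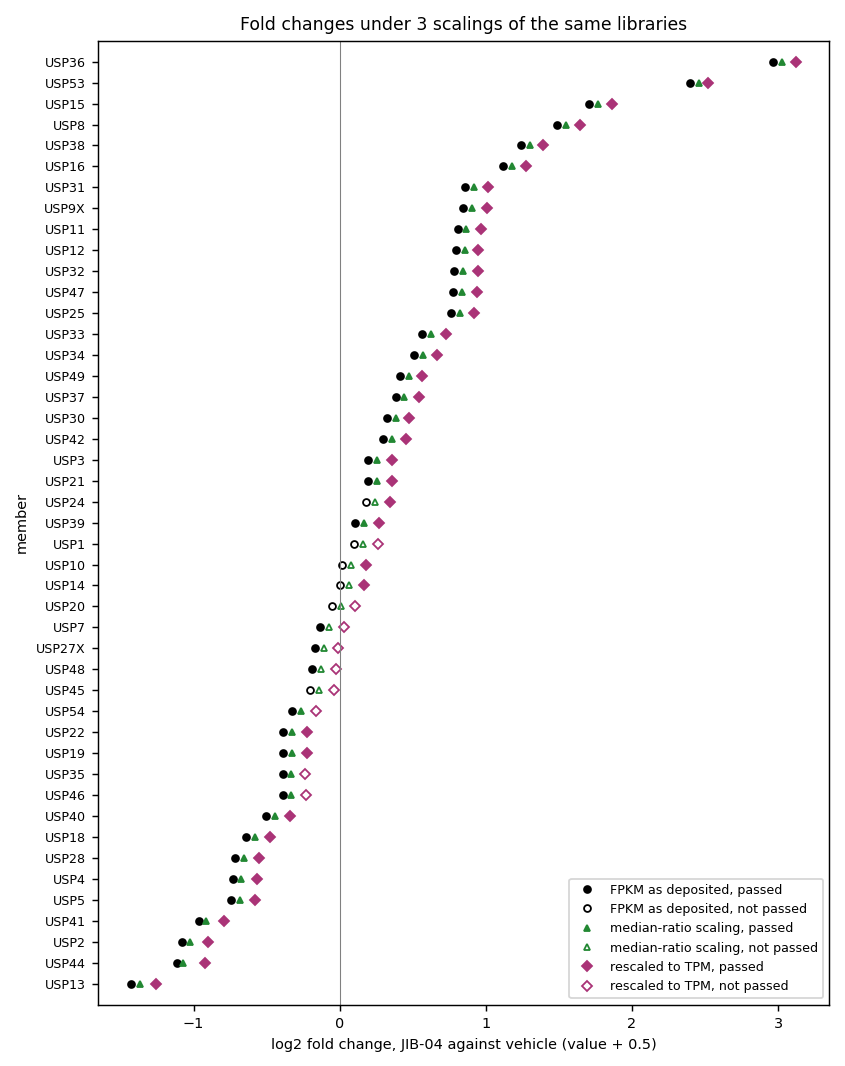
Log2 fold change of each tested member (x axis, JIB-04 against vehicle on value + 0.5) with FPKM as deposited, with median-ratio scaling and after rescaling to TPM, filled where the member passed the test and open where it did not. The 22 members called higher on FPKM are filled under all 3 scalings, and USP7 moves from -0.14 on FPKM to 0.03 on TPM.

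The nucleolus and splicing group held opposite changes. Beside the rise of USP36, USP4, which acts on spliceosome proteins and also on the TGF-beta receptor, had 29.4, 31.1, 33.4 and 29.2 FPKM in vehicle and 17.8, 19.5, 16.9 and 19.1 FPKM with JIB-04. No treated library reached the vehicle range (log2 fold change -0.73 ± 0.068, SE, limma adjusted p = 8.65e-06).

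Of the 3 members tied to interferon and ISG15, 1 rose (34.2% of all genes) and 2 fell (38.0% of all genes). USP25 rose by 0.76 on the log2 scale. USP18, the protease that removes the ubiquitin-like protein ISG15, fell by 0.64, from 12 to 7.53 FPKM. USP41, a near copy of USP18, had 4.55, 2.62, 2.01 and 1.63 FPKM in vehicle and 1.29, 1.12, 0.756 and 1.11 FPKM with JIB-04. The groups did not overlap, but vehicle replicate 1 was far above the rest (log2 fold change -0.96 ± 0.26, SE, limma adjusted p = 0.00850), and an analysis of variance on FPKM gave an adjusted p of 0.0668. USP41 shares 478 windows of 50 bases with USP18, 46.5% of those in its own transcript and 23.0% of those in USP18, so how reads were divided between these 2 genes is uncertain.

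Among members of mitochondria and the endoplasmic reticulum, USP19, an enzyme of the endoplasmic reticulum membrane, fell by 0.39 on the log2 scale. USP35 fell by 0.39 too on FPKM and did not pass on TPM (-0.24). USP30, which counters mitophagy at the outer mitochondrial membrane, was called higher at 0.32 (limma adjusted p = 0.0404), but its groups overlapped. Its call was lost without vehicle replicate 2 or 4 or JIB-04 replicate 1, 2 or 3, with limma adjusted p of 0.0593 to 0.111.

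In the group long described as lacking protease activity, USP39, a spliceosome factor, went with USP53 on the higher side, at a log2 fold change of only 0.10 (limma adjusted p = 0.0452). Leaving out vehicle replicate 1, 3 or 4 or JIB-04 replicate 1, 2 or 4 took it over the threshold, with limma adjusted p of 0.0550 to 0.112, and C2orf68 (38.2 and 17.7 FPKM) overlaps it on the opposite strand. USP54, the close relative of USP53, had 25.7, 25.4, 29.6 and 23.4 FPKM in vehicle and 19.7, 22.6, 19.8 and 20.5 FPKM with JIB-04. It fell by 0.32 on FPKM without overlap of the groups and did not pass on TPM (-0.16). USP40, which is little described, fell by 0.50 on the log2 scale.

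Close relatives were also compared with each other. For 17 pairs of related members with both tested, the log2 ratio of one to the other was taken within each library, which cancels the scaling of a library except for the pseudocount of 0.5. Some members stand in more than 1 pair, so the pairs are not independent. In 14 pairs the ratios of the groups did not overlap, with an exact two-sided permutation p of 0.0286, the smallest that 4 against 4 allow, and an adjusted p of 0.0347 over the 17 pairs. All 14 share the same p, so the adjusted p is set only by how many of the 17 pairs separated. The 2 pairs that hold USP44 are among the 14, and the adjustment was not repeated without them. The pairs were chosen with earlier results of these data known. In 9 pairs the relatives were called in opposite directions on FPKM, and in 5 on TPM. Without the 2 pairs that hold USP44, 12 pairs did not overlap and 7 had opposite calls on FPKM. No such count was made for other pairs of genes, and 67.3% of single genes tested did not overlap between the groups.

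USP53 against USP54 showed the largest shift. Their log2 ratio was -2.62 to -1.84 in vehicle and 0.21 to 0.57 with JIB-04, a difference of 2.72 (exact permutation p = 0.0286, n = 4 per group). The member with the lower level in vehicle was thus the higher one in all 4 treated libraries. USP36 and USP42, which share sequence in their catalytic domains, had a log2 ratio of 1.76 to 1.96 in vehicle and 4.40 to 4.61 with JIB-04, a difference of 2.66. Here both members rose, USP42 from 11.8, 11.0, 11.3 and 12.7 FPKM to 15.0, 14.2, 14.4 and 14.2 FPKM.

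USP4 and USP15, paralogs with the same domain order, went in opposite directions. Their log2 ratio was -0.93 to -0.32 in vehicle and -3.21 to -2.81 with JIB-04, a difference of -2.44. USP4 against its other paralog, USP11, gave a difference of -1.54. USP35, with 4.56, 4.92, 4.06 and 4.25 FPKM in vehicle and 3.64, 3.49, 2.60 and 3.44 FPKM with JIB-04, fell relative to USP38 by 1.63 on the log2 scale. USP25 against USP28 differed by 1.48, and USP12 against USP46 by 1.19, so that in both pairs the treated libraries changed which relative was higher.

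USP5 and USP13 both fell but unequally, and their log2 ratio differed by 0.68 in favour of USP5. The groups overlapped in 3 pairs. The difference was -0.33 for USP24 against USP34 (exact permutation p = 0.0857), 0.32 for USP18 against USP41 (p = 0.343) and -0.22 for USP22 against USP27X (p = 0.0571), with n = 4 per group. The other pairs that did separate were USP44 to USP49 (-1.53), USP16 to USP45 (1.32), USP3 to USP44 (1.31), USP7 to USP47 (-0.91), USP24 to USP9X (-0.66) and USP20 to USP33 (-0.61). Those with USP44 are given as a description, because USP44 was tested through the vehicle group alone.

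**Figure D4:**
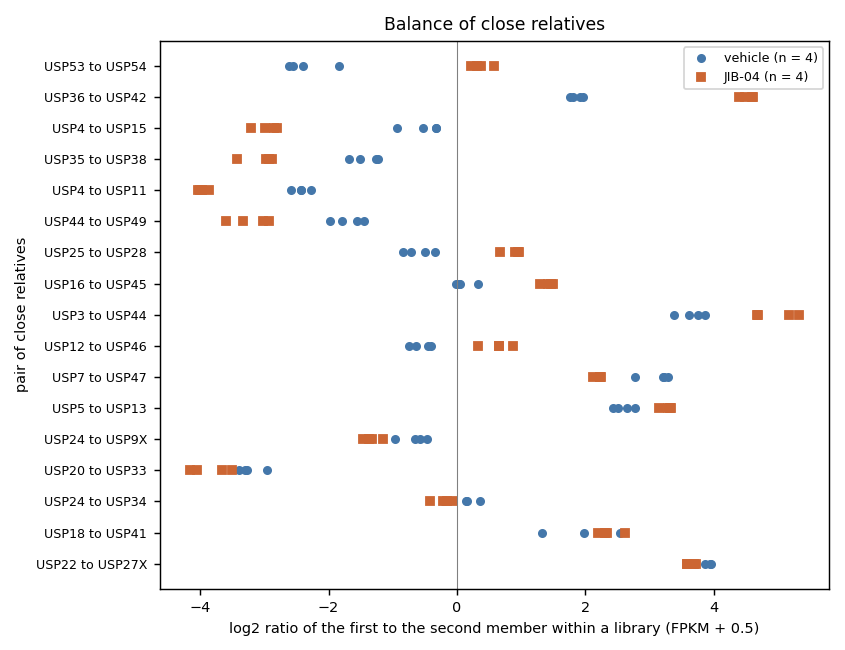
Log2 ratio of the first to the second member of 17 pairs of related proteases within each library (x axis, FPKM + 0.5), with vehicle libraries as circles and JIB-04 libraries as squares, 4 of each. The ratio of USP53 to USP54 lies between -2.62 and -1.84 in vehicle and above 0 in all 4 JIB-04 libraries.

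The 6 members under the level for testing were USP6, USP26, USP29, USP43, USP50 and USP51. USP51, a relative of USP22 that also acts on histone H2B, lay just under it, with vehicle libraries at 0.891 to 0.986 FPKM and JIB-04 libraries at 0.146 to 0.404 FPKM, without overlap. When no level was required, it was called lower (-0.84, limma adjusted p = 0.000891). USP6, USP26, USP29 and USP43 had at most 0.151 FPKM in any library, and USP6 shares 573 windows of 50 bases with USP32. USP50 ranged from 0 to 0.0885 FPKM among vehicle libraries and reached 0.539 FPKM among the treated ones, and USP8, which rose, overlaps it on the opposite strand. Just above the level lay USP44 and USP41, with means of 1.25 and 1.89 FPKM over the 8 libraries.

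Properties of the transcripts varied along with the changes. Across the 45 members tested, Spearman's correlation between the log2 fold change and GC content was -0.41, and over 12201 coding genes tested it was -0.33. Members called higher had a median GC content of 41.1%, those called lower 49.2% and coding genes in general 48.5%. USP36, at 56.5% GC, lay apart from the low GC content of the other large rises, and USP53, at 34.5%, had the lowest of all members. The correlation with the length of the longest coding transcript was 0.41 over the members and 0.17 over coding genes. These correlations are across genes, which share the same 8 libraries and are not independent replicates, and the part of base composition and length in the changes was not tested. Vehicle replicate 4 was the highest vehicle library for 21 of the 45 members, 14 of them among the 22 that rose, and for 27.0% of all genes tested.

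The other deubiquitinase families were counted from lists of their members. Counted with them were 3 proteins with a USP fold but another name, of which USPL1 and PAN2 are not deubiquitinases. Listing was by family, and activity on ubiquitin was not checked for each protein. Of the 35 tested in all, 20 rose (34.2% of all genes), 6 fell (38.0% of all genes) and 9 did not pass. Their median log2 fold change was 0.43 against -0.07 over all genes. On TPM 23 were higher (40.4% of all genes) and 4 lower (31.1% of all genes). CYLD, which has a USP fold but another name and limits NF-kB signaling, rose by 2.14 on the log2 scale, from 4.49 to 21.4 FPKM. USPL1, a USP-like protease of SUMO, rose by 0.81, and PAN2, a part of the poly(A) nuclease, fell by 0.84. Of 13 OTU proteases, 8 rose and 2 fell (10 and 1 on TPM), led by TNFAIP3, another brake on NF-kB, at 3.69 on the log2 scale (3.21 ± 0.601 to 47.2 ± 6.65 FPKM, SD, n = 4, limma adjusted p = 2.74e-08). VCPIP1 rose by 1.95 and OTUD3 by 1.13.

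The counts of the smaller families stand beside the same shares of all genes, 34.2% higher and 38.0% lower (40.4% and 31.1% on TPM). Of 7 JAMM proteases 4 rose and 2 fell (4 and 1 on TPM), among them the histone H2A deubiquitinase MYSM1 (1.90), COPS5 of the COP9 signalosome (0.43) and MPND (-2.02). Of 3 Josephin proteases 2 rose, ATXN3 (1.72) and JOSD1 (1.02). Of 5 MINDY and ZUP1 proteases 2 rose, ZUFSP (1.43) and FAM188A (1.00). Of 4 UCH proteases 2 rose (3 on TPM), UCHL3 (0.71) and UCHL1 (0.08), and BAP1, another histone H2A deubiquitinase, fell by 0.75 on the log2 scale.

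Proteins that bind or activate USPs had 7 of 15 higher (34.2% of all genes) and 5 lower (38.0% of all genes), with a median log2 fold change of -0.01. On TPM 8 were higher (40.4% of all genes) and 5 lower (31.1% of all genes). The 5 that fell were FANCD2 (-0.71), GMPS (-0.65), ATXN7L3 (-0.44), G3BP1 (-0.44) and FANCI (-0.41). The 7 that rose included G3BP2 (0.54), STAM2 (0.50), ENY2 (0.40) and MDM2 (0.30, with overlap of the groups). WDR48 and WDR20, the activators of USP12 and USP46, rose by 1.02 and 0.89 on the log2 scale, and STAM, which brings USP8 to endosomes, by 1.03. Among genes of ubiquitin itself and its activating enzymes, UBB fell by 1.06, from 2987 ± 137 to 1433 ± 25.0 FPKM (SD, n = 4). RPS27A fell by 0.18 on FPKM and did not pass on TPM (-0.01). The activating enzymes UBA1 and UBA6 rose by 0.22 and 0.29 on the log2 scale.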

How the data were processed

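RNA-seq libraries of A673 cells were analyzed, 4 from vehicle and 4 from treatment with JIB-04 at 2 μM over 36 hours. Per the labels and the methods, the authors used GSNAP for alignment to GRCh38, SAMtools for the alignments and Cufflinks for the FPKM, and the deposited FPKM were taken without further scaling. Labels and methods differ on the read length, and neither says whether strand was used in counting. The table holds 66095 entries. Duplicate entries, found for 117 identifiers, were summed, and 13 genes with a placeholder value, 0 of them members, were left out.

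The main test was limma 3.58.1 (R 4.3.3) on log2(FPKM + 0.5), with eBayes and a variance trend, over genes whose mean reached 1 FPKM. P-values were adjusted by Benjamini-Hochberg and 0.05 was the threshold. Fold changes are on this scale, where the pseudocount shrinks those of low genes. Ratios within pairs of relatives were tested by exact two-sided permutation with scipy 1.17.1. GENCODE release 29 gave positions, GC content and overlaps, and RefSeq the promoter windows. Tables and plots used numpy 2.4.6, pandas 2.3.3, matplotlib 3.10.9 and Python 3.11.15. The fit was tested on simulated data in which only a small part of the genes changed. In the real data 34.2% of genes were called higher and 38.0% lower, a setting that the simulation did not cover.

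The members, roles, pairs and lists were chosen with earlier results of these data known. Values in every library are given for the 6 largest rises and 6 largest falls that passed, for members of at least 20 FPKM that did not pass, and for the 4 pairs with the largest differences. From each other list up to 3 genes with the smallest adjusted p are named. Beyond that rule, after their values were seen, RPS27A, UBA6, the other partners of the proteases that rose or fell and some cell type markers were named. Those markers are all but CD99, NKX2-2 and FLI1. Some genes of these lists are not reported here. The alternatives were pseudocounts of 0.1 and 1, no filter, a filter of 5 FPKM, TPM, median-ratio scaling, analysis of variance of FPKM, a replicate block, and leaving out each library in turn.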

Additional observations from a re-analysis of the deposited data

Results flagged for a closer look

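A library was singled out where its gap to the nearest of the other 3 in its group, divided by the range of the group, was over Dixon's 95% critical value. This happened in 7 of 102 groups of the 51 members, and chance flags about 1 group in 20.

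Among the members that rose, USP36 was at 42.2 FPKM in vehicle replicate 1, where the other vehicle libraries had 43.9 to 44.2 FPKM. USP38 was at 32.9 FPKM in JIB-04 replicate 3, with 29.9 to 30.4 FPKM in the others. USP47 was at 36.4 FPKM in vehicle replicate 4, with 26.9 to 28.2 FPKM in the others. USP21 was at 66.7 FPKM in JIB-04 replicate 3, with 69.97 to 70.5 FPKM in the others. Each of these 4 members kept its call when that library was left out.

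USP22, which fell, was at 179 FPKM in vehicle replicate 4, with 204 to 208 FPKM in the others, and kept its call without that library. Of the members under 1 FPKM, USP29 was at 0 in vehicle replicate 2, with 0.0124 to 0.0143 FPKM in the others, and USP50 was at 0.0885 FPKM in vehicle replicate 1 and at 0 in the other vehicle libraries.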

How the results depend on the processing

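Of the 39 members called, 29 kept their direction and their call under every one of the 16 alternatives that tested them, and the filter of 5 FPKM left USP2, USP35, USP41 and USP44 untested. The 29 include USP44, which reached the level for testing through the vehicle group alone. On TPM, 11 members were lower (31.1% of all genes), USP44 among them, in place of 17 on FPKM (38.0% of all genes). The median log2 fold change of the members was 0.10, and was 0.19 with a filter of 5 FPKM, 0.27 on TPM, 0.16 with median-ratio scaling and 0.085 to 0.18 when 1 library was left out. Direction reversed for USP7 (0.028) and USP20 (0.11) on TPM, and for USP20 with median-ratio scaling (0.0084). When 1 library was left out, the log2 fold change ranged from -0.024 to 0.054 for USP10, from -0.041 to 0.032 for USP14 and from -0.13 to 0.040 for USP20, members that did not pass.

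Calls lost on TPM were those of USP7, USP27X, USP35, USP46, USP48 and USP54, with median-ratio scaling those of USP7, USP27X and USP48, in the analysis of variance those of USP30, USP41 and USP46, and without a filter that of USP30. The causes were not tested. Leaving out 1 library gave 20 to 21 members higher and 16 to 18 lower. Over all 17460 genes tested it gave 5714 to 5908 higher and 6336 to 6575 lower.

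The labels number the samples 1 to 4 in both groups, but same-numbered samples did not deviate together (correlations of 0.08, -0.06, 0.03 and 0.00), so the numbers were not taken as pairs. With a replicate block 21 members were higher and 17 lower. USP27X and USP39 then did not pass and USP45 did.

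FPKM carry no absolute depth, so the precision rests on the spread between 4 libraries.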
